A study of Daphnia magna with 30 samples.

Results

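Whole-animal transcript levels were compared between Daphnia magna kept at the equinox day length of 12 hr light and 12 hr dark (12L:12D) and the 16 hr light, 8 hr dark control (16L:8D), a setting common in toxicity testing. The members were the 12 arrays whose titles name these photoperiods in the first of 2 experimental trials, 6 per group, out of 30 arrays over 5 photoperiods. All animals were 21-day-old females of a single laboratory genotype whose culture had been reared at 16L:8D, so the control animals stayed at the day length of their culture. Each photoperiod was held in 1 box with 3 exposure chambers, and from each chamber 2 single animals, A and B, were hybridised to 1 array each. Box and photoperiod therefore cannot be told apart. Animals were taken within 1 hr of the start of the light phase, after 12 hr of dark in one group and 8 hr in the other, so the length of the last dark phase and the day length cannot be told apart either. RNA came from the whole animal with the eggs or neonates in its brood pouch, and fewer cells of a type and less RNA per cell cannot be told apart in such samples.

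Daphnia are small freshwater crustaceans that reproduce clonally for much of the year and make males and resting eggs under seasonal cues, among which day length is one of the best known. Light reaches the animal through rhodopsins, light-activated receptors of the eye, and arrestins, which switch activated rhodopsin off. Daily timing in arthropods rests on a feedback loop of clock proteins that includes Period. An adult female moults, swells and fills her brood pouch in a repeating cycle, during which yolk protein, egg shell and cuticle transcripts rise and fall.

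Levels below are log2 values of the background-corrected signal over the 75th percentile of the same array, so a level of 0 is a probe as bright as that percentile, and levels of different probes are not compared with each other. A difference is the 12L:12D mean minus the 16L:8D mean on that scale, from limma fitted to all 30 arrays, and is given with its standard error (SE). The fit gives each letter of each photoperiod its own mean, so a shared difference between A and B animals is left out of the SE. The 95% interval of a difference is the range of true differences that the remaining spread between animals leaves possible under that fit. Of 14338 probes, 9249 had a signal well above background on every array of the 12 and are called bright below, 4299 did on 1 to 11 of them and 790 on none. Of 20 marker probes of tissues, 15 were bright in this sense, among them probes for vitellogenin, vitelline membrane, vinculin, amylase, cuticle protein, arrestin and rhodopsin. Those not bright were another amylase probe and the carboxypeptidase probes, all of the gut, and the hemoglobin and testis development protein probes.

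The arrays of the groups differed in brightness before any probe was tested. The 75th percentile of the processed signal was 552.3 ± 24.4 (SD, n = 6) at 12L:12D and 437.1 ± 54.8 (SD, n = 6) at 16L:8D. This was larger than the spread between animals by a two-sided exact permutation test (p = 0.00649). The groups overlapped only through animal A of control chamber 1, at 532.9. The share of probes well above background was 84.32% ± 4.09 (SD, n = 6) at 12L:12D and 78.53% ± 4.18 (SD, n = 6) in the control (exact permutation p = 0.0152). Both permutation tests shuffled single animals as if they were independent. The animals came from 3 chambers per photoperiod in 1 box, and the groups shared few slides. These p-values therefore cannot tell photoperiod from chamber, box or slide. No test with chambers as units was run for these measures. Animal A of control chamber 3 stood apart with 70.1% of probes well above background, against 79.6% to 81.1% in the other 5 control animals.

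**Figure D1:**
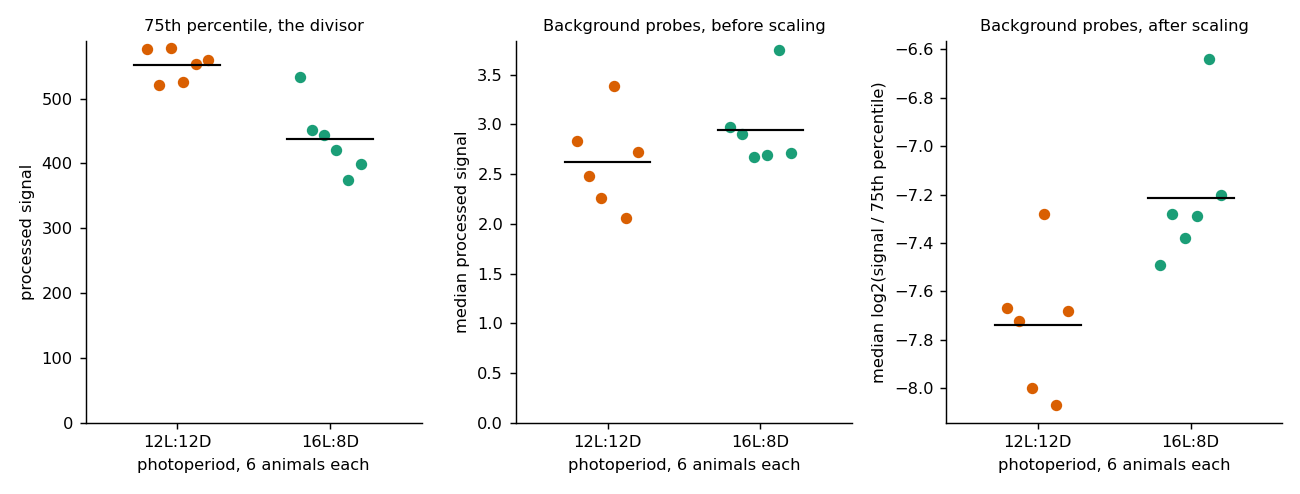
Each point is 1 animal and each line a group mean. Left, 75th percentile of the processed signal, in signal units; middle, median processed signal of the 790 probes that were well above background on none of the 12 arrays; right, the same median after division by the 75th percentile, on a log2 scale. The 12L:12D arrays had the higher percentile and the lower scaled background.

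No transcript passed the adjusted threshold between the equinox photoperiod and the control. With Benjamini-Hochberg adjustment over all probes, limma called 0 of 14338 probes (0%), and the smallest adjusted p was 0.299. An unadjusted p under 0.05 was reached by 848 probes (5.91%), against the 5% expected there when nothing differs. Probes of the same animals are not independent, and how far the share can stray from 5% was not tested. Of the 848 probes, 139 were higher at 12L:12D (0.969% of probes) and 709 lower (4.94%). That lopsided split moved with the scaling. The share that was higher was 16.4% as scaled here, 35.3% with each array scaled on its median, 33.0% after quantile normalisation and 28.1% after normexp background correction with quantile normalisation.

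The split also moved with brightness. Of the 790 probes that were well above background on none of the 12 arrays, 293 (37.1%) had an unadjusted p under 0.05, and 292 of those were lower at 12L:12D. Of the 9249 probes well above background on all 12, 381 (4.12%) did, with 72 higher and 309 lower. The background-level probes had a median signal of 2.06 to 3.39 units on the 12L:12D arrays and 2.67 to 3.75 on the control arrays before scaling, ranges that overlapped. Their median difference was -0.136 before division by the 75th percentile and -0.482 after it. The ratio of the mean 75th percentiles was 0.338 on the log2 scale. The median difference over all 14338 probes was -0.058.

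**Figure D2:**
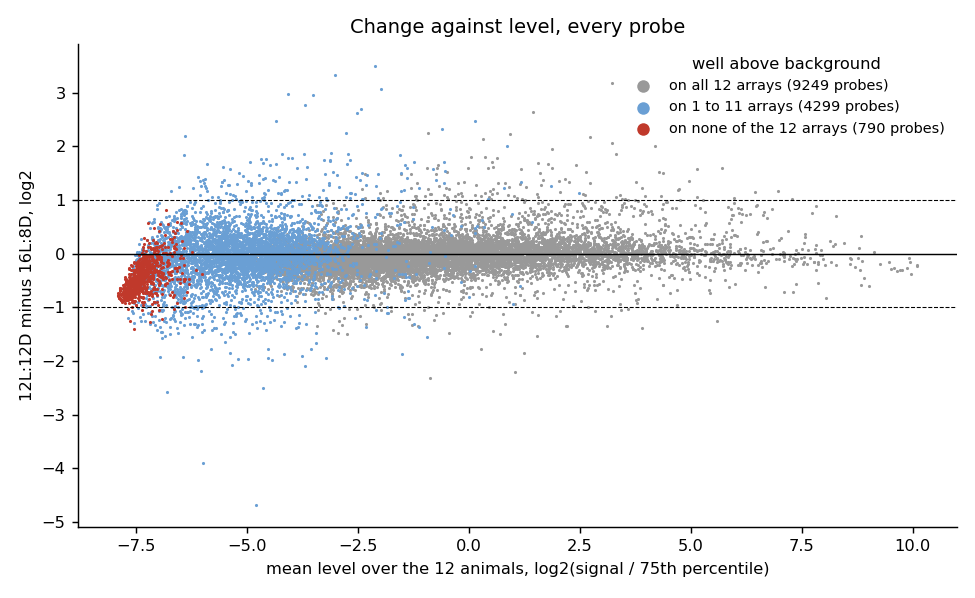
Every point is 1 probe. The horizontal axis is the mean level over the 12 animals and the vertical axis the 12L:12D minus 16L:8D difference, both on a log2 scale; dashed lines mark a 2-fold difference. The 790 probes at background, at the far left, lie mostly below 0, while brighter probes scatter to both sides of 0.

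The 10 probes with the smallest p values were mostly of this background kind. In 9 of them no array of either group was well above background, so no fold is given. DM04511P3, annotated as a disintegrin and metalloprotease, was one of the 9, with levels of -8.41 to -7.82 (median -8.09) at 12L:12D and -7.65 to -6.26 (median -7.32) in the control. Those groups did not overlap, and the difference was -0.92 ± 0.20 (SE). The sphingomyelin phosphodiesterase probe DM13283P1 was alike, at -8.20 to -7.61 (median -7.91) and -7.46 to -6.56 (median -7.27). The only bright probe among the 10, DM09405P3, carried no protein name in the annotation used here. Its levels ran from -3.40 to -2.44 (median -3.17) at 12L:12D and from -2.71 to -1.45 (median -2.41) in the control, a 1.78-fold lower estimate (limma adjusted p = 0.299). With slide as a block its difference was -0.52 in place of -0.83.

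Groups that did not overlap at all were found for 229 of 14274 probes with a value on every array (1.6%), of which 222 were lower at 12L:12D and 7 higher. Again 185 of the 229 were probes at background on all 12 arrays, and 30 were well above background on all 12. After quantile normalisation the count was 25, with 5 higher. Among the 30 bright probes the widest gap belonged to DM14664P1, with no protein name here. It lay between -3.58 and -3.24 (median -3.43) at 12L:12D and between -3.13 and -2.64 (median -2.97) in the control. DM14198P1, also unnamed, lay between 3.90 and 4.18 (median 4.07) and between 4.27 and 4.75 (median 4.58). These gaps were narrow, and the fitted differences were -0.49 ± 0.17 and -0.45 ± 0.13 (SE). The single bright probe that was higher in every 12L:12D animal, DM12153P1, differed by 0.31 ± 0.18 (SE).

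The rule of the study's methods, which asks for a photoperiod effect at p under 0.01, a pairwise p under 0.05 and a 1.5-fold difference without adjustment, called 48 probes (0.335%), 16 higher and 32 lower. That split turned with the scaling, with 26 of 36 higher when each array was scaled on its median, 14 of 26 after quantile normalisation and 7 of 10 after normexp correction. Of these, 18 were at background on all 12 arrays and all 18 were lower, 20 were above background on some arrays, and 10 were bright. The 10 bright probes included DM00185P2, an amyloid precursor-binding protein (-0.66 ± 0.19 SE), DM07337P1, a patatin-like phospholipase (-1.04 ± 0.34 SE), DM15242P3, cyclin-dependent kinase 10 (-0.68 ± 0.23 SE), and DM04022P1, the kinase Fused, a component of Hedgehog signalling in Drosophila (-0.65 ± 0.25 SE). Only 2 of the 10 were higher, DM12834P1, a secreted protein (0.60 ± 0.25 SE), and DM01709P2 (0.70 ± 0.33 SE). None of them passed adjustment over all probes.

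With no call to report, the size of change that the fit left possible is the more informative measure. Its intervals rest on the spread between animals over all 30 arrays, and not on the 12 alone. For bright probes, the 95% interval reached a median of 1.36-fold to either side of the estimate, from 1.2-fold at the 5th percentile of probes to 2.93-fold at the 95th. The whole interval lay within 2-fold for 7388 of the 9249 bright probes (79.9%), within 1.5-fold for 4015 (43.4%) and within 4-fold for 8708 (94.2%). Over all 14338 probes the counts were 9380 (65.4%), 4292 (29.9%) and 12943 (90.3%). The count within 1.5-fold depended on the setting, with 10431 after normexp correction and 2168 with slide as a fixed block, and the counts within 2-fold were then 12683 and 7315. With chamber means fitted in place of single animals, 3774 probes lay within 1.5-fold and 9270 within 2-fold. Normexp correction here added 50 units to every signal, which draws folds toward 1, so its counts do not bound transcripts more tightly.

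The bounds were weaker when the intervals were made to hold for all probes at once. With Bonferroni-adjusted intervals, 1101 bright probes (11.9%) stayed within 2-fold and 6683 (72.3%) within 4-fold, while 2 stayed within 1.5-fold. A pair of one-sided moderated tests against a 2-fold difference, adjusted by Benjamini-Hochberg over all probes, placed 7551 bright probes (81.6%) inside that bound. Against 1.5-fold the count was 2706 (29.3%). That adjustment limits the expected share of false calls and does not make the bounds hold for all probes at once. These test counts therefore rest on another criterion than either kind of interval and cannot be ranked against the interval counts. By the 95% intervals of single probes, a difference of 2-fold or more remained possible for 1861 bright probes (20.1%), and one of 4-fold or more for 541 (5.85%).

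Among bright probes, ranked by level, the interval lay within 2-fold for 82.8% of the dimmest 2313 and for 74.4% of the brightest 2312, and within 1.5-fold for 36.7% and 47%. The median half-widths were close, at 1.38-fold and 1.37-fold. The 95th percentile of the half-width was 4.22-fold in that brightest set and 2.05-fold in the dimmest. The 4299 probes above background on only some arrays had 1707 (39.7%) within 2-fold and a median half-width of 1.79-fold. Of the 790 probes at background 285 (36.1%) lay within 2-fold, but an interval there bounds the signal and not the transcript.

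**Figure D3:**
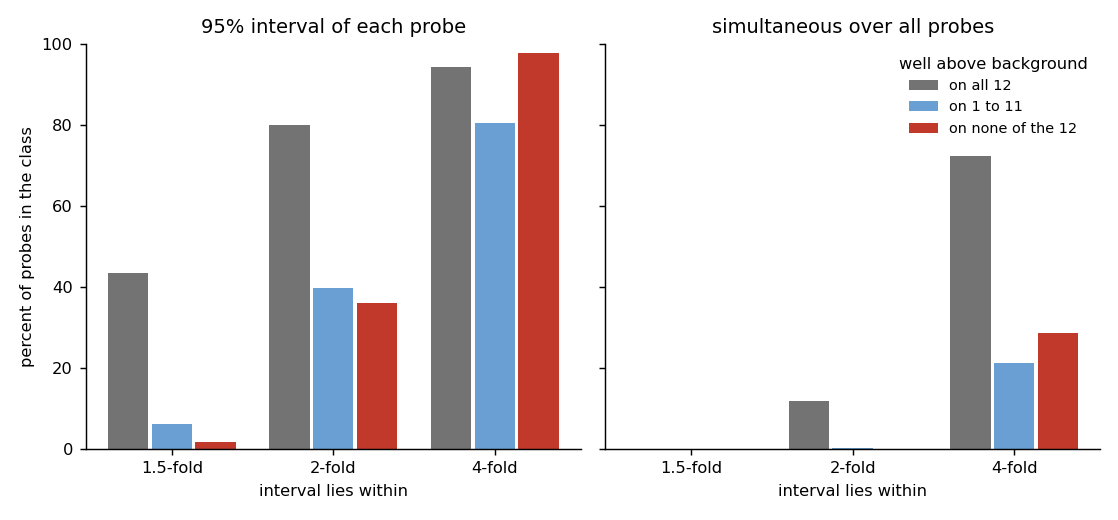
Bars give the percent of probes whose interval for the 12L:12D to 16L:8D ratio lies wholly within 1.5-, 2- or 4-fold, for probes well above background on all 12 arrays, on 1 to 11 and on none. Left, the 95% interval of each probe; right, intervals adjusted to hold for all probes at once. On the left, 79.9% of bright probes lie within 2-fold; on the right, 11.9% do.

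Among bright probes with an unadjusted p under 0.05, the 5 largest increases and the 5 largest decreases belonged to probes without a protein name, and the groups overlapped in all 10. Of the 10 bright probes with an estimate beyond 4-fold, 8 had an unadjusted p above 0.05 and standard errors of 1.10 to 2.25, such as DM06797P1 (2.63 ± 1.40) and DM08020P3 (-2.31 ± 2.25). The remaining ones were DM04117P2 and DM05201P3. DM04117P2 gave the largest increase. Its levels were 3.38 to 5.44 (median 4.92) at 12L:12D and -1.38 to 5.07 (median 1.44) in the control. The 12L:12D animals were uniformly high apart from animal B of chamber 2, while the control animals spread over the whole range and overlapped them. The estimate was 9.02-fold, with a 95% interval of 1.22 to 5.13 on the log2 scale (limma adjusted p = 0.305). Within the shared slides the difference was 2.21 on one and 0.07 on the other. Each slide that held both groups had 1 control array, from chamber 3, and its arrays are part of the contrast itself. Of 848 probes with an unadjusted p under 0.05, 773 and 772 kept their sign there, so a shared sign adds no separate support.

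DM01947P1 was similarly uniform at 12L:12D, at 6.15 to 7.16 (median 6.38), and 5 of the 6 control animals lay below that range. The control animals ran from 2.03 to 6.40 (median 5.32). The estimate was 1.59 ± 0.53 (SE). DM02665P1 rested on animal A of chambers 2 and 3 at 12L:12D, with levels of 4.48 and 4.00, while the other 4 lay at or below 1.08 and the control animals between -0.68 and 0.11. Within the slides that held both groups it was lower at 12L:12D, by 0.48 on one and by 0.27 on the other on the log2 scale.

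Among decreases with an unadjusted p under 0.05, DM05201P3 had the largest estimate, 4.6-fold lower (adjusted p = 0.495). Its levels were -0.93 to 0.58 (median -0.17) at 12L:12D and -0.77 to 5.28 (median 1.70) in the control, where animal A of chamber 1 and animal B of chamber 2 reached 4.76 and 5.28. The difference was -2.20 as fitted here and -1.11 with slide as a block, and it was 0.19 on one of the shared slides. DM06170P1 was the most even of the set, at -2.20 to -1.29 (median -1.87) against -1.72 to 0.71 (median -0.42). It was estimated 2.55-fold lower (limma adjusted p = 0.299), and differed by -0.82 ± 0.43 (SE) with slide as a block. It was also lower at 12L:12D within both shared slides, where most probes with an unadjusted p under 0.05 kept their sign.

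**Figure D4:**
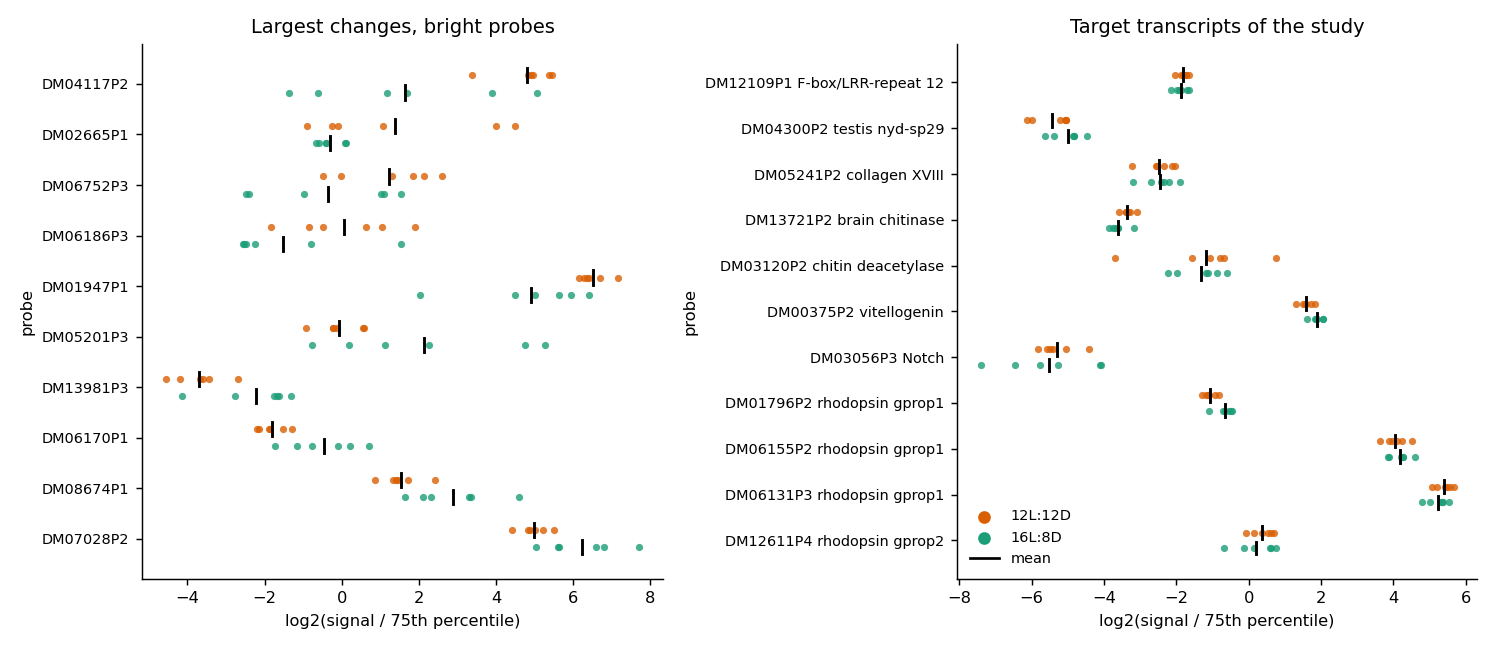
Each point is 1 animal, and the black bar is the group mean, on a log2 scale. Left, the 5 largest increases and 5 largest decreases among bright probes with an unadjusted p under 0.05; right, the 11 target transcripts that the study drew from the first trial. The groups overlap in all 10 on the left, while most targets lie close together, apart from chitin deacetylase at 12L:12D and Notch in the control.

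The list of light sensing and the clock held few differences. Of 11 probes in this list, 10 were bright, 1 was higher and 1 lower at an unadjusted p under 0.05 (5.91% of all probes were under it), and the 95% interval lay within 2-fold for 10 (90.9%), against 65.4% of all probes and 79.9% of bright ones. The median difference was 0.02. The probe that was lower was DM01796P2, a rhodopsin named gprop1 in the annotation. Its levels were -1.28 to -0.81 (median -1.10) at 12L:12D and -1.09 to -0.46 (median -0.59) in the control, where only animal A of chamber 2 fell inside the 12L:12D range. The estimate was 1.33-fold lower with an interval of -0.62 to -0.20 (limma adjusted p = 0.299), and the values within the shared slides were -0.35 and -0.47.

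The intervals of the other rhodopsin probes included 0. DM06155P2 and DM06131P3, which carry the same gprop1 name, differed by -0.13 ± 0.19 and 0.18 ± 0.18 (SE), and the gprop2 probe DM12611P4 by 0.16 ± 0.27 (SE). Arrestin, DM03055P2, was at 4.64 to 5.16 at 12L:12D and 4.64 to 5.14 in the control, a difference of 0.02 with an interval of -0.28 to 0.33. Period, DM09904P4, was at -2.04 to -1.48 (median -1.91) and -2.01 to -1.04 (median -1.56), a difference of -0.24 with an interval of -0.68 to 0.19. The F-box/LRR-repeat protein probe DM12109P1, which the study matched to circadian rhythm, differed by 0.07, with an interval of -0.22 to 0.35.

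The probe that was higher in this list, DM00285P3, was annotated as a nuclear receptor of subfamily 1 group D, whose mammalian members feed back on the circadian clock. Its levels were -0.78 to 0.81 (median 0.24) at 12L:12D and -2.84 to 1.00 (median -1.03) in the control. At 12L:12D the A animal of every chamber was above the B animal, a split that the SE below leaves out. The SDs between animals were 0.72 at 12L:12D and 1.35 in the control. The highest value of all 12 belonged to a control animal, A of chamber 3. The estimate was 1.23 ± 0.44 (SE; adjusted p = 0.536), and on the slide shared with that animal the difference was -0.92.

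The 11 transcripts that the study matched to whole-animal responses from the first trial had been chosen on these arrays and those of the other photoperiods, so their values are no independent evidence. At 12L:12D none reached the adjusted threshold, and DM01796P2 was the only one with an unadjusted p under 0.05. Vitellogenin DM00375P2, the yolk precursor fused with superoxide dismutase, was at 1.31 to 1.84 (median 1.58) and at 1.6 to 2.06 (median 1.87) in the control, a difference of -0.29 with an interval of -0.74 to 0.16. The testis development protein nyd-sp29, DM04300P2, matched to sex determination, was well above background on 5 arrays at 12L:12D and 3 in the control and differed by -0.43, with an interval of -0.95 to 0.10. Collagen XVIII, DM05241P2, differed by -0.01, with an interval of -0.51 to 0.49. The chitin deacetylase DM03120P2 was poorly bounded, at 0.15 with an interval of -1.33 to 1.64.

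Few egg and cuticle transcripts could be bounded. In the egg yolk and egg shell list 1 of 8 probes was higher and none lower at an unadjusted p under 0.05. Over all probes the shares were 0.969% and 4.94%. The interval lay within 2-fold for 2 of the 8 (25%). In the cuticle and chitin list no probe of 11 was below 0.05, and 2 (18.2%) had an interval within 2-fold. Their median half-widths were 2.41-fold and 3.08-fold, against 1.47-fold over all probes. The probe that was higher, DM03972P1, was a chorion peroxidase, an enzyme family that hardens the egg shell in insects. It was well above background on all 6 arrays at 12L:12D and on 1 in the control, with levels of -5.78 to -2.69 (median -4.19) and -6.46 to -3.57 (median -5.78). The difference was 1.32 ± 0.52 (SE; adjusted p = 0.674). At 12L:12D the B animal of every chamber was above the A animal, a split that this SE leaves out.

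The spread within a group is best seen in single animals. In the order chamber 1, 2 and 3, cuticle protein DM12885P2 stood at 2.05, 1.67 and 2.00 in the A animals and at 5.57, 5.64 and 5.02 in the B animals of 12L:12D. In the control it stood at 1.41, 4.99 and 2.16 in the A animals and at 5.48, 1.39 and 4.96 in the B animals. Each group thus held 3 low and 3 high animals, and the members of every chamber lay on opposite sides. The range was 15.7-fold at 12L:12D and 17-fold in the control, whereas the group difference was 0.26 ± 0.76 (SE). That SE leaves out what the A and B animals of a photoperiod differ by on average. The SDs between animals were 1.93 at 12L:12D and 1.94 in the control.

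The second vitellogenin probe, DM01555P3, ranged 16.3-fold at 12L:12D and 6.15-fold in the control, and cuticle protein DM08522P1 130-fold and 48.8-fold. Arrestin, by contrast, ranged 1.43-fold and 1.41-fold. The vitellogenin probes gave such different ranges under the same protein name that their sequences are shown, with no capitals since the longest run they share is 6 bases:
DM00375P2: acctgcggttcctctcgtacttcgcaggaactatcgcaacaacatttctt
DM01555P3: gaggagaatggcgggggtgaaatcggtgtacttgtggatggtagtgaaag

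Over the 9186 bright probes with a value on every array, the first principal component took up 44.99% of the variance and did not separate the photoperiods. At 12L:12D the A animals scored -55.5, -35.7 and -26.0 and the B animals 30.4, 50.8 and 32.8 for chambers 1 to 3. In the control the A animals scored -49.8, 45.5 and -48.3 and the B animals 51.1, -45.4 and 50.1. In all 6 chambers the animals of a chamber fell on opposite sides of 0. Across the probes of an array, animals correlated at a median of 0.929 within 12L:12D, 0.8913 within the control and 0.9215 between the groups. The nearest array was of the same photoperiod for 8 of the 12.

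Control animals were the more variable. The SD between animals was larger in the control for 71.9% of bright probes, with medians of 0.393 and 0.285. A range of over 4-fold within the group was seen in 1577 bright probes in the control and in 945 at 12L:12D, out of 9186 with a value on every array, and in 779 of these it was seen in both. The difference between group means took up a median of 5.07% of a probe's variance over the 12 animals.

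In metabolism and defence, single transcripts had an unadjusted p under 0.05 and none passed adjustment. Lipid metabolism had 1 of 16 probes higher and 1 lower at an unadjusted p under 0.05, against 5.91% of all probes in both directions together, with a median difference of 0. The lower one was DM07337P1, a patatin-like phospholipase of a family that releases fatty acids from stored fat. Its levels were -4.40 to -2.82 (median -3.71) at 12L:12D and -2.97 to -1.90 (median -2.71) in the control, so that the groups overlapped only through animal A of chamber 1 at 12L:12D. It was estimated 2.05-fold lower with an interval of -1.74 to -0.33 (adjusted p = 0.424), by 1.04 also with slide as a block. Its sign was kept within both shared slides, as for most probes with an unadjusted p under 0.05. Malic enzyme DM01669P3, a source of NADPH, was the higher one, at 0.48 ± 0.20 (SE).

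Detoxification had 1 of 17 probes higher and 3 lower at an unadjusted p under 0.05, against 0.969% and 4.94% of all probes, with a median difference of 0.06. The higher one, the sulfotransferase DM02287P2, which adds sulfate to small molecules, differed by 1.33. Of the 3 lower probes, DM03409P4 and DM04963P3 were at background on all 12 arrays, a class in which 37.1% of probes were under 0.05. The bright one, DM04557P3, was annotated as cytochrome P450 3A40, of the kind that oxidises foreign compounds. It was at -2.92 to -2.22 (median -2.48) against -2.44 to -1.32 (median -2.03), a difference of -0.52 ± 0.18 (SE). Another bright probe of the same name, DM05312P3, differed by 0.11. In the list of clip-domain proteases and immunity, 1 of 9 probes was higher at an unadjusted p under 0.05, against 0.969% of all probes. This was DM08499P2, a C-type lectin, which binds sugars in innate defence. It was at -3.19 to -2.83 (median -3.03) in all 12L:12D animals and at -5.24 to -3.36 (median -3.44) in the control, with no overlap (0.77 ± 0.30 SE; adjusted p = 0.647). Animal B of control chamber 1 was the lowest of all.

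Digestive enzymes had a median difference of 0.29, but no probe of 18 had an unadjusted p under 0.05. The widest estimate there was DM02251P3, a mannanase that cuts plant and algal polysaccharide, at -4.49 to -2.83 (median -3.83) and -7.53 to -3.71 (median -4.91), a difference of 1.36 with an interval of -0.08 to 2.81. Endoglucanase DM02972P1 went the other way, at -0.52 with an interval of -1.10 to 0.05. Only 3 of the 18 (16.7%) were bounded within 2-fold.

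Transcripts of protein making and turnover, most of them bright, were bounded about as often as other bright probes (79.9% within 2-fold) or somewhat more often, a difference that was not tested. The interval lay within 2-fold for 24 of 28 ribosome biogenesis probes (85.7%), 16 of 18 spliceosome probes (88.9%), 14 of 15 translation factor and tRNA ligase probes (93.3%), 19 of 21 proteasome probes (90.5%) and 8 of 10 chaperonin probes (80%). Their median differences lay between -0.09 and 0.05. In these lists the probes below an unadjusted p of 0.05 were DM06651P1, a nucleolar GTP-binding protein of a family needed for the large ribosomal subunit in yeast (-0.66 ± 0.24 SE), DM02780P1, proteasome subunit beta 3 (0.56 ± 0.25 SE), and DM13230P4, a proteasome activator at background on all 12 arrays. Muscle and cytoskeleton was bounded as well, with 9 of 10 probes within 2-fold (90%). Among probes for vinculin, an anchor of actin to the membrane, DM01279P2 was at 0.00 to 0.72 (median 0.36) against -0.61 to 0.08 (median -0.11). It was higher by 0.48, with an interval of 0.10 to 0.86 (limma adjusted p = 0.615). The other vinculin probes, DM00850P2, DM02270P1 and DM01356P1, were bright too and differed by 0.13, 0.13 and 0.03, with unadjusted p above 0.05.

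No member of the neural signalling list (17 probes, median -0.17), of basement membrane and matrix (11, median -0.15), of histones and DNA replication (11, median -0.10), of oxygen and iron binding (4, median -0.04) or of sex determination (3, median -0.09) had an unadjusted p under 0.05. Of 3 heat shock chaperones, 1 was lower, the DnaJ probe DM06298P1, at background on all 12 arrays. Over all probes 4.94% were lower at that threshold and 0.969% higher, and 37.1% of background probes were under it. Of 13 carbohydrate metabolism probes, 1 was higher, DM08772P1, the enzyme that sets fructose 2,6-bisphosphate (0.56 ± 0.26 SE). Over the 254 distinct probes of all 20 lists, 8 were higher and 8 lower at an unadjusted p under 0.05, which is 6.3% against 5.91% of all probes. The interval lay within 2-fold for 157 of them (61.8%), against 65.4% of all probes. Of the 751 probes with a protein name, the pool of the lists, 20 were higher and 53 lower, and 54.1% lay within 2-fold. The lists could draw only on the 751 probes with a protein name, most of which the study had named for a response to some photoperiod in either trial, so they are not independent of these arrays.

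**Figure D5:**
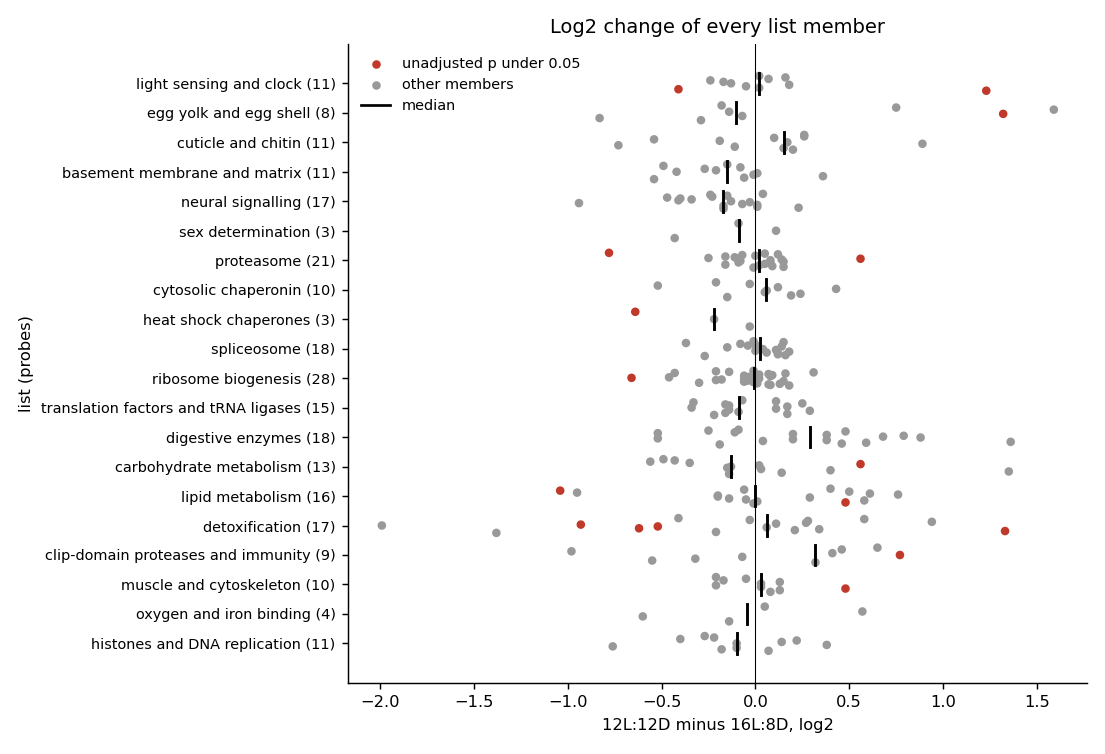
Each point is 1 probe of a list, placed by its 12L:12D minus 16L:8D difference on a log2 scale; red points have an unadjusted p under 0.05, grey points do not, and black bars are list medians. Numbers in brackets count the probes. Medians lie between -0.22 and 0.32, and members scatter to both sides of 0.

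A photoperiod effect over the 5 day lengths passed adjustment for 10 probes, and 8 of these had an unadjusted p above 0.05 between 12L:12D and 16L:8D. DM05417P2, a high-affinity choline transporter, which supplies choline for acetylcholine synthesis, was at -3.30 to -2.38 (median -2.84) at 12L:12D and -2.93 to -2.08 (median -2.31) in the control, a difference of -0.41 ± 0.20 (SE). DM15253P2, a hypothetical protein, differed by -0.43 ± 0.32 and DM02748P1, an uncharacterised protein, by -0.14 ± 0.41 (SE). DM00868P2, glucose dehydrogenase, differed by 0.14 ± 0.28 (SE), with animal A of control chamber 3 far below the rest at -6.13.

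Only DM14137P3 and DM07202P1 of the 10 had an unadjusted p under 0.05 in this contrast, and both carried the name of the same uncharacterised protein. DM14137P3 was at -6.55 to -4.37 (median -5.50) at 12L:12D and -5.19 to -2.59 (median -4.02) in the control. It was estimated 2.60-fold lower (adjusted p = 0.556), by 1.32 with slide as a block. It was lower within both shared slides, where most probes with an unadjusted p under 0.05 kept their sign. It was well above background on 3 arrays at 12L:12D and 5 in the control. DM07202P1 was well above background on 1 of the 12 arrays, so no fold is given.

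Among the 83 probes named by rule whose sequence was at hand, DM14137P3 shared a run of 24 bases with DM08656P1, another of the 10, and the next longest run shared by any pair was 11 bases. These probes are therefore not independent measurements, and their sequences are shown with the shared run in capitals, beside DM07202P1, whose longest run in common with DM14137P3 was 8 bases:
DM14137P3: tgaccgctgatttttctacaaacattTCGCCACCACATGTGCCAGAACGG
DM08656P1: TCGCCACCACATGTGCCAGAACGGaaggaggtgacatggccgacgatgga
DM07202P1: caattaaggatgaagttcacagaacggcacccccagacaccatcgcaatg
DM08656P1 was at -5.67 to -3.78 (median -4.87) at 12L:12D and -6.81 to -2.40 (median -3.88) in the control, a difference of -0.65 ± 0.56 (SE), which was 0.36 with slide as a block.

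Slide was the setting that changed the adjusted count. Only 2 slides held both groups, one with 1 array of each and one with 2 arrays of 12L:12D and animal A of control chamber 3. With slide as a fixed block in place of the letter, limma called 118 of 14338 probes at an adjusted p under 0.05 (0.823%), 5 higher and 113 lower at 12L:12D. Of the 118, 108 were at background on all 12 arrays and 4 were well above background on all 12. In that fit control chamber 3 carried 65.5% of the control's weight, against 33.3% without the block. Without animal A of that chamber 10 probes were called, all 10 at background, without the chamber 0, with only the 12 arrays fitted 0, and with only bright probes tested 0. Without the chamber no slide held both groups. The interval then lay within 2-fold for 3767 probes, and for 4484 with only the 12 arrays, against 7315 in the full slide-block fit. Those fits were less precise, so a count of 0 in them does not settle the 118 calls.

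The 4 bright probes called with the slide block were DM10443P3 (-0.95 ± 0.18 SE), DM11199P2 (-0.82 ± 0.18 SE), DM15293P2 (-0.62 ± 0.14 SE) and DM08001P2 (-0.53 ± 0.12 SE), which carried no protein name and were looked up after the calls were seen. All 4 were lower without the block too, by 0.50, 0.56, 0.44 and 0.41. Of the 5 that were higher, DM01082P4, a hydrolase named PNKD, was well above background on 5 arrays at 12L:12D and none in the control. The others were DM09199P1, on 6 and none, DM12556P2, DM03048P1 and DM04873P1.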

How the data were processed

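RNA of single Daphnia magna (80 ng) was labelled with 1 dye and measured on Agilent arrays with 15744 spots. Per the file headers the deposited signal intensity was extracted with Feature Extraction 10.7.3.1, while the submitters' processing notes name 9.5.1. The deposited processed intensity was already background-corrected, no spot was saturated, and 222 spots (0.0487%) with an outlier flag were set to missing. The log2 of the intensity minus that of each array's 75th percentile was fitted in R 4.3.3 with limma 3.58.1 on all 30 arrays (photoperiod by letter, moderated tests, Benjamini-Hochberg over 14338 probes). The deposited log2 values of the authors, scaled alike and centred per probe, differed from these by a median of 0.00819 and were an alternative. Normexp used the median signal, with offset 50, because no mean signal column was at hand.

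Named probes are the 10 smallest p, the 5 largest increases and decreases among bright probes, the 5 smallest p with the slide block, the 3 widest gaps each way, those with an adjusted photoperiod effect, the 11 study targets and up to 3 per list. Other probes, apart from the tissue markers, were picked after their values were seen, whether or not this is said beside them. The rule, the probes and the lists were chosen with earlier results of these data known. Probe names and sequences come from the study's annotation, of which only names and sequences were used; the 11 targets matched no gene of the reference table, so no genome position is given. The number of arrays limits precision. The chamber numbers are shared between photoperiods but do not pair the samples. P-values of the fit measure the spread between animals of the same letter, over 3 chambers in 1 box. With the letter left out of the limma fit, 853 probes had an unadjusted p under 0.05 in place of 848. The fit was tested on simulated data.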

Additional observations from a re-analysis of the deposited data

Results flagged for a closer look

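In groups of 6 animals, 1 animal lay far from the other 5 in 24 of 212 groups checked, 16 of them in the control. Chance alone sets an animal apart in about 1 in 20 groups. The probes share the same 12 animals, so these are not separate events. Animal A of control chamber 3, which had 70.1% of probes well above background, was the one apart in most control groups. It was the highest of the control at -6.26 for DM04511P3, -6.19 for DM12926P1, -6.58 for DM08266P1, -6.25 for DM05637P3 and -6.29 for DM10332P3. The same held at -6.29 for DM07998P1, -6.17 for DM15001P1, -6.22 for DM13993P1, -6.47 for DM13230P4 and -3.16 for DM13721P2. It was apart at -7.38 for DM06452P2, -6.13 for DM00868P2 and -6.22 for DM05095P1. Animal B of control chamber 1 was apart for DM03972P1 at -3.57 and for DM08499P2 at -5.24.

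At 12L:12D, animal B of chamber 2 was apart for DM04117P2 at 3.38, DM11603P2 at 2.88, DM01913P1 at 3.76, DM01669P3 at -3.05, DM03620P2 at -1.79 and DM05095P1 at -3.85. Animal B of chamber 3 was apart for DM12153P1 at 3.97 and animal B of chamber 1 for DM00868P2 at -4.00. All values are log2 levels.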

How the results depend on the processing

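The adjusted count of 0 was found under every alternative run except slide as a fixed block (118) and that block without animal A of control chamber 3 (10). The count with an unadjusted p under 0.05, 848, was 421 when only probes bright on all 12 arrays were tested, 482 with probes bright on 5 arrays of a group, 1934 with array quality weights, and 481 with the slide block without control chamber 3. Without 1 chamber it ran from 504 to 1126, the lowest without chamber 1 and the highest without chamber 2 of 12L:12D. The methods' rule, 48, gave 10 after normexp, 26 after quantile normalisation, 16 and 23 with the brightness filters, 128 with slide as a random block, 185 as a fixed block, 259 with only the 12 arrays, and 177 with array weights. It ran from 33 to 74 without 1 chamber. With the slide block it gave 96 without animal A of control chamber 3 and 345 with only the 12 arrays. Intervals within 2-fold, 9380, numbered 5984, 3767 and 4484 with the slide block without that animal, without control chamber 3 and with only the 12 arrays, and 8063 to 8711 without 1 chamber. Those within 1.5-fold, 4292, numbered between 379 and 1400 in these slide-block fits. Groups that did not overlap, 229, numbered 25 after quantile normalisation and 30 among bright probes. The slide-block fits on fewer arrays or probes were chosen after seeing the data.

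The replicate numbers do not pair the samples, since each photoperiod had its own box and chambers. Deviations of same-numbered chambers correlated at -0.21, -0.06 and -0.67, and those of differently numbered ones at -0.55 to 0.63. With 3 chambers a group these values cannot decide whether chambers pair. The replicate block gave 0 adjusted calls, 831 probes with an unadjusted p under 0.05 and 111 by the methods' rule.

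Signs turned for DM12926P1 (0.01), DM09264P3 (0), DM07998P1 (0.07) and DM03409P4 (0.04) after normexp, for DM02780P1 (-0.15) and DM08772P1 (-0.02) with the slide block without control chamber 3, and for DM02665P1 (-0.36) and DM06186P3 (-0.19) with it on only the 12 arrays. Within the slide of 1 array each they turned for DM09172P2 (0.10) and DM02665P1 (-0.48), and within the other for DM02665P1 (-0.27), DM06186P3 (-0.82), DM05201P3 (0.19) and DM00285P3 (-0.92). The cause was not tested. Of 3003 values of the 104 named probes under alternatives, 187 moved by more than the spread between animals. Probes near background limit what these arrays can bound.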
